A study of Mus musculus with 4 samples.

Results

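The cytochromes P450 and the other enzymes that oxidise, reduce, hydrolyse or conjugate small molecules were compared between STMN1-/- and STMN1+/+ mouse embryo fibroblasts (MEFs). Members were all probes whose gene name on the array began with the symbol of a P450 (Cyp), flavin monooxygenase (Fmo), aldehyde oxidase (Aox), aldehyde dehydrogenase (Aldh), aldo-keto reductase of family 1 (Akr1), epoxide hydrolase (Ephx), carboxylesterase (Ces), glutathione transferase (Gst), sulfotransferase (Sult) or UDP-glycosyltransferase (Ugt). A P450 name had to go on with a number, a letter and a number, and a glutathione transferase name with a class letter. Aldh1l2 and Aldh18a1 were left out. Counts of a family are thus those of the names that matched, and not of every gene of its kind. The members were 163 of 27962 gene names on the array and 233 of 41174 probes. A probe was tested where either RNA gave a signal well above background on at least 1 array, which left 103 member genes (125 probes) of 18742 genes (27669 probes).

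RNA came from cultured MEF lines that were made from single mid-gestation C57BL/6 embryos of STMN1+/- matings and kept for few passages in medium with serum. In the STMN1-/- lines both alleles of the gene for stathmin, a protein that destabilises microtubules, are disrupted by a neomycin cassette in every cell, and the STMN1+/+ lines are wild type. The labels name no treatment of either, and the medium held an antibiotic and antimycotic mix. Both RNAs were hybridised together on each of 4 two-color arrays, and the dyes were swapped: Cy3 marked the STMN1-/- RNA on replicates 1 and 2, Cy5 on the others. Which cell line or extract was put on an array is not in the labels. The p-values thus speak of the spread among these 4 arrays, possibly a technical one, and each genotype may stand for few embryos.

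Detoxification proceeds in steps. P450s, heme enzymes that take electrons from P450 reductase, and flavin monooxygenases insert oxygen, aldehyde and carbonyl enzymes oxidise or reduce the products, hydrolases open esters and epoxides, and transferases attach glutathione, sulfate or a sugar. Many members also act on the cell's own retinoids, sterols, eicosanoids and lipid aldehydes, and several are induced through the aryl hydrocarbon receptor (AhR) or the oxidative stress factor NRF2. The liver holds most of these enzymes, and fibroblasts express a smaller set.

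The AhR, paired with its partner ARNT, binds a xenobiotic response element whose core is GCGTG, and Cyp1a1 and Cyp1b1 are its best known target genes. The 250 bases before the start of each are shown because the 2 genes gave lower ratios here, with any GCGTG on either strand in capitals. They are RefSeq sequences of build GRCm38.p6, Cyp1a1 at chr9:57697363-57697612 on the plus strand and Cyp1b1 at chr17:79715062-79715311 on the minus strand, each written 5′ to 3′ along its gene.
Cyp1a1: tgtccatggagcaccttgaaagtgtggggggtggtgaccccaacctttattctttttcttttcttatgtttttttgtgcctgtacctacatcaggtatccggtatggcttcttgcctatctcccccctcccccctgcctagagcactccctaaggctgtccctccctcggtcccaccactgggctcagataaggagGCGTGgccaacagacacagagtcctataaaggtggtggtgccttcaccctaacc
Cyp1b1: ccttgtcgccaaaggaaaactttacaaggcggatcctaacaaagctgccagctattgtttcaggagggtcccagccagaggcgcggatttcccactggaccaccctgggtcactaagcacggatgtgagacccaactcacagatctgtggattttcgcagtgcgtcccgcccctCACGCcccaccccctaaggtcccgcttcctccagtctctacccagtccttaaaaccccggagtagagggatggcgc
Each window holds 1 core, starting at position -54 from the start of Cyp1a1 and, on the other strand, at -76 from the start of Cyp1b1. The same 5 letters stand in 28.2% of all 32851 promoter windows and in 22 of the 95 windows (23.2%) listed for tested member genes. A window was listed for 82 of these 103 genes, and some had several. They stand in 3 of 11 windows (27.3%) of the members called higher and in 4 of 14 (28.6%) of those called lower. The NRF2 element TGACNNNGC, also read on both strands, stands in 6.3% of the members' windows and in 10.2% of all windows. The window listed for Cyp2s1, a P450 called lower, holds no GCGTG. A match of letters is a description and not a bound site, and bases farther upstream were not searched.

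Paralogs are a limit of these arrays, since a 60-mer probe can bind the RNA of a near relative. The probes of 2 aldo-keto reductases, both called lower, are shown as an example, with the bases that match in the ungapped alignment in capitals. The genes belong to different subfamilies, so the pair does not stand for closer paralogs such as the Akr1c genes. The Akr1b3 probe lies at chr6:34237806-34240221 and the Akr1c18 probe at chr13:4019629-4021004 of the files' build, mm7, both on the minus strand, and these spans are far longer than the 60 bases of a probe, so both probes cross an intron and lie in exons.
Akr1b3: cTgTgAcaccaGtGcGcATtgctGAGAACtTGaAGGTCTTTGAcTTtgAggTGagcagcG
Akr1c18: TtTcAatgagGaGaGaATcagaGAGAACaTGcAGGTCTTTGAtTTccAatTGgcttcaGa
In this alignment 32 of 59 bases were identical. Over all 1613 pairs of tested probes of different genes within a family, 1 pair shared 15 or more bases in a row, with a longest run of 18 bases in the probes of Cyp2j11 and Cyp2j13. The Aldh1a1 and Aldh1a7 probes shared at most 8 bases in a row and the Gstm1 and Gstm2 probes at most 9. Within the Akr1c genes, the Akr1c14 probe shared at most 5 with that of Akr1c13 and 6 with that of Akr1c18. Only probes were compared with each other, and their match to the full RNA of paralogs was not tested.

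In STMN1-/- MEFs, 17 of the 103 tested detoxification genes were up-regulated and 15 were down-regulated, while 71 did not pass the test. Among genes well above background in both RNAs on all 4 arrays, the largest rise was that of Aldh1a3 (2.35 fold) and the largest fall that of Aldh1a1 (4.32 fold), both of which make retinoic acid. Cyp4b1, a fatty acid hydroxylase, was higher from a STMN1+/+ signal at or near background, and Cyp1a1, the AhR target, was lower to one not above it. The members called higher were 16.5% and those called lower 14.6% of the tested members, where 12.2% of all tested genes were called higher and 11.6% lower. At a fold change of at least 2, 4 members were higher (3.88%) and 7 lower (6.80%), against 1.52% and 1.47% of all tested genes. The median log2 ratio of STMN1-/- over STMN1+/+ was 0.09 over the members and 0.00 over all tested genes. A gene stands as called where the adjusted p of limma's moderated test of the log2 ratio against 0, adjusted over all tested probes, was under 0.05. Leaving out an array lowered the counts, to 14, 11, 11 and 9 genes higher without replicate 1, 2, 3 and 4, and to 10, 10, 10 and 11 lower. With normexp background correction in place of the processed signals, 3 genes were called higher and 5 lower. With the dye effect as a coefficient, which takes the difference between dye orientations out of the spread, 30 were called higher and 18 lower.

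**Figure D1:**
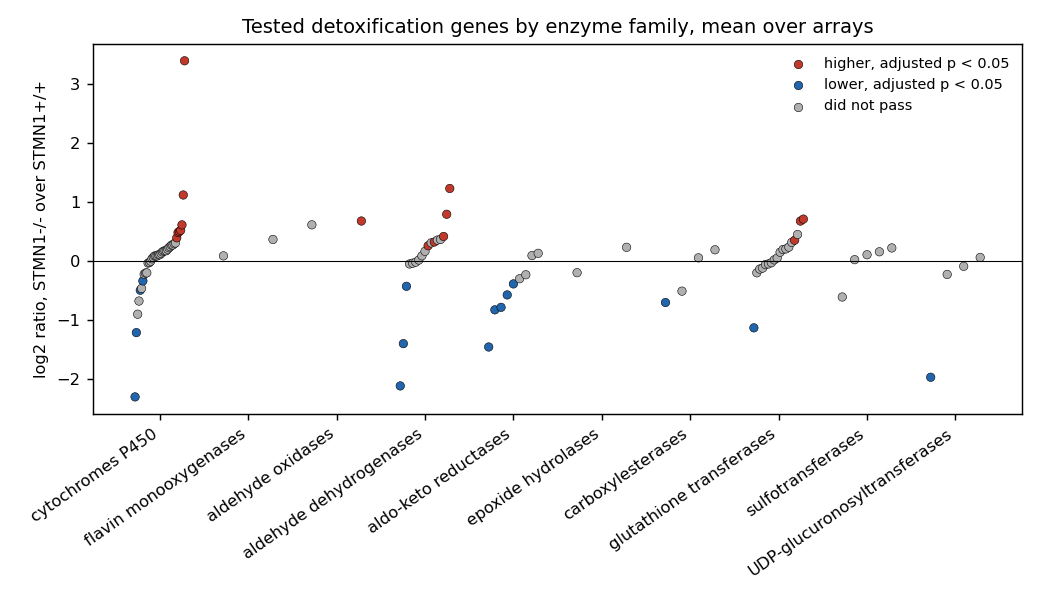
Mean log2 ratio (STMN1-/- over STMN1+/+, y axis) of tested detoxification genes by enzyme family (x axis), 1 point a gene, in order of ratio within a family. The 5 called aldo-keto reductases are all lower, 5 of 8 called aldehyde dehydrogenases and 7 of 11 called P450s are higher, and no sulfotransferase or epoxide hydrolase passed the test.

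Markers of the cells' identity and of other cell types were read beside these ratios. All 7 fibroblast markers were well above background in both RNAs, 6 of them were higher in STMN1-/- MEFs and Vim was lower (log2 ratio -0.28), and their summed signal was 3150250 to 4172150 per array for STMN1-/- and 1754950 to 2111770 for STMN1+/+ RNA. All 6 tested epithelial markers were lower, with a summed signal of 54508 to 63858 against 81991 to 92540. Cdh1, E-cadherin, stayed under the background limit in STMN1-/- RNA on every array and was at least 6.33 fold lower, and Krt5 and Krt19 had log2 ratios of -1.56 and -1.29. Of 6 adipocyte markers, 3 were lower, Cfd and Adipoq were not well above background in STMN1-/- RNA, and the sum over 5 of them was 13439 to 16505 against 23135 to 24391. The sums of macrophage markers were 124615 to 145748 against 148766 to 170427. Most of that signal came from Lyz2 (mean 129200 against 151406), which did not pass (adjusted p = 0.0855). Among the 5 tested, Cd68 was lower and Csf1r higher. The endothelial sums were 1148 to 1370 against 1673 to 2015, with Kdr lower of 2 tested. Of the hepatocyte markers, Alb, Ttr and Apoa1 were not well above background on any array, 4 others were tested, Afp and Apoa2 were lower, and the sums overlapped, at 1055 to 1499 against 1079 to 1608. None of 3 tested steroidogenic markers passed the test. Fewer cells of a type and less RNA per cell cannot be told apart in such RNA, and the part of other cell types in the enzyme ratios was not tested. Both Stmn1 probes were lower in STMN1-/- RNA on all 4 arrays, with log2 ratios of -0.39 (adjusted p = 0.0181) and -2.16 (adjusted p = 0.000598), the former with adjusted p = 0.0651, 0.0751 and 0.0643 without replicate 1, 2 and 3. The study describes a Stmn1 probe of the array as also matching another chromosome. Which of the probes that is, and where they lie relative to the disrupted part, was not tested. The study also states, citing earlier work, that Stmn1 mRNA (by qRT-PCR) and protein (by western blot) are absent from STMN1-/- MEFs. Between arrays, log2 ratios over member probes correlated at 0.70 to 0.86, and over all tested probes at 0.69 and 0.70 for the 2 pairs with equal dyes and at 0.44 to 0.49 for the 4 swapped pairs.

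Among the P450s, 39 of 70 member genes were tested. Of these, 7 were higher (17.9%) and 4 lower (10.3%), against 12.2% and 11.6% of all tested genes. By the substrates they are best known for, the class for fatty acids and eicosanoids held 5 of the 7. These were 38.5% of its 13 tested genes, with 1 lower (7.69%) and 7 that did not pass. Of 16 tested P450s for foreign compounds, 1 was higher (6.25%) and 2 were lower (12.5%). Another 20 of that class had no probe well above background, among them Cyp1a2, Cyp2e1 and the Cyp3a genes other than Cyp3a11. These enzymes are abundant in liver.

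Cyp4b1 hydroxylates medium-chain fatty acids and activates some plant toxins. Its processed signal was 942, 739, 740 and 667 in STMN1-/- RNA of replicates 1 to 4, against 87.9, 45.7, 149.7 and 46.4 in STMN1+/+ RNA. The STMN1+/+ signals were well above background on 1 array only, and the groups did not overlap. The log2 ratios were 3.42, 4.02, 2.31 and 3.85, with a mean of 3.40 ± 0.30 (SE, n = 4, 10.5 fold, adjusted p = 0.0029). With normexp correction, which adds an offset of 50 to every signal, the log2 ratio was 0.82 (adjusted p = 0.0533).

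Other P450s of the fatty acid class changed less. Cyp4f13, of the subfamily that inactivates leukotrienes, had log2 ratios of 0.72, 0.35, 0.45 and 0.59 (mean 0.53 ± 0.08, adjusted p = 0.0125). Cyp4v3, an ω-hydroxylase, had 0.33, 0.42, 0.57 and 0.71 (mean 0.51 ± 0.08, adjusted p = 0.0146). Cyp2j9, which oxidises arachidonic acid, had 0.22, 0.70, 0.42 and 0.62 (mean 0.49 ± 0.10, adjusted p = 0.0253). All of these rose on every array, by 1.40 to 1.44 fold. Cyp4a12, now named Cyp4a12a, was the fifth, with a mean of 0.40, and its second probe, at 0.19, did not pass (adjusted p = 0.366). Cyp2u1, which hydroxylates long-chain fatty acids, was the member of the class that fell, with a log2 ratio of -0.33 (adjusted p = 0.0244). Each of these calls was lost when at least 1 of the arrays was left out. Cyp4f13 gave adjusted p = 0.0544 without replicate 4. Cyp4v3 gave 0.0506 and 0.0613 without replicate 2 and 3, and missed the threshold narrowly without replicate 4. Cyp2j9 gave 0.0842, 0.0761 and 0.0884 without replicate 2, 3 and 4. Cyp4a12 missed it without replicate 1 or 4, and Cyp2u1 without any 1 of the 4.

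Cyp1a1 oxidises aromatic hydrocarbons. Its signal was 29.7, 30.5, 25.0 and 26.7 in STMN1-/- RNA, not well above background on any array, against 174.8, 127.6, 84.2 and 187.3 in STMN1+/+ RNA, well above background on 3. Set against the lowest signals that counted as well above background, Cyp1a1 was at least 1.94 fold lower (adjusted p = 0.0025 for the measured log2 ratio of -2.30). Such a bound is the mean of the brighter RNA over the mean of, per array, the higher of that floor and the dim signal, on the log2 scale after quantile normalization of the mean signals. Cyp1b1, the extrahepatic relative of Cyp1a1, had log2 ratios of -0.70, -0.79, -0.19 and -0.15 on its brighter probe, which did not pass (mean -0.46 ± 0.14, adjusted p = 0.0732). Its second probe was lower on all arrays (mean -0.86 ± 0.09, adjusted p = 0.0046), and with normexp correction the brighter probe passed (adjusted p = 0.0115). The brighter probe was lower by more on both arrays with STMN1-/- RNA in Cy3 than on both with it in Cy5. Cyp1b1 lies outside the rule for named genes and was chosen after its values were seen.

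Cyp2s1, an extrahepatic P450 that dioxin also induces, fell on all arrays, with log2 ratios of -1.13, -1.18, -1.18 and -1.33 (mean -1.21 ± 0.06, 2.31 fold, adjusted p = 0.00084). Its signals were 2456 to 2689 in STMN1-/- and 5574 to 6183 in STMN1+/+ RNA. Cyp2s1 passed under normexp correction as well (adjusted p = 0.0270), while Cyp1a1 did not (adjusted p = 0.0783). Cyp2d22, a drug-metabolising P450, rose, with log2 ratios of 0.31, 0.64, 1.00 and 0.53 (mean 0.62 ± 0.12, adjusted p = 0.0240). Its second probe had a mean of 0.34 and did not pass (adjusted p = 0.200), and the call was lost without replicate 2, 3 or 4 (adjusted p = 0.0843, 0.0501 and 0.0691).

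Of the P450s for sterols and steroids, 6 were tested and 1 passed. Cyp7b1, the oxysterol 7α-hydroxylase that leads cholesterol oxidation products towards bile acids, had log2 ratios of 1.17, 1.12, 1.13 and 1.07 (mean 1.12 ± 0.05, 2.18 fold, adjusted p = 0.0008). Its signals were 4010 to 4782 in STMN1-/- and 1842 to 2190 in STMN1+/+ RNA, so that the groups lay far apart. The 3 P450s for retinoic acid and vitamin D did not pass: Cyp26b1, which degrades retinoic acid, was measured on 1 array (log2 ratio 0.11), and Cyp27b1 and Cyp2r1, which activate vitamin D, had means of 0.16 and 0.11. With outlier spots kept, Cyp26b1 had 0.31 (adjusted p = 0.0379). Cyp20a1, whose substrate is not known, fell by 0.49 on the log2 scale (adjusted p = 0.0056) on all 4 arrays.

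**Figure D2:**
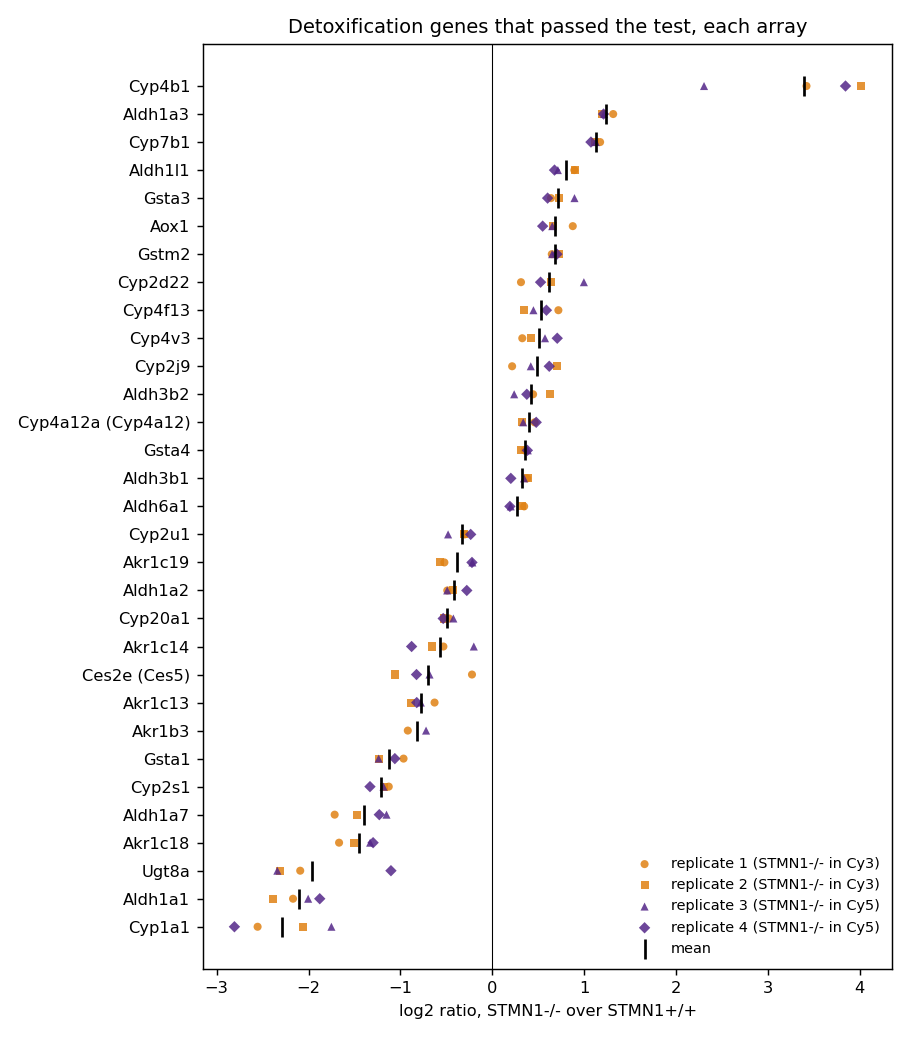
Log2 ratio (STMN1-/- over STMN1+/+, x axis) on each array for detoxification genes that passed the test (y axis), with the mean as a bar and the dye of the STMN1-/- RNA by colour. Each array with a value turned the same way for every gene shown, and Akr1b3 has values on 2 arrays; the widest spread among the genes called higher is that of Cyp4b1, from 2.31 to 4.02.

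Of the flavin monooxygenases, which oxidise nitrogen and sulfur in many drugs, Fmo2 and Fmo5 did not pass (mean log2 ratios 0.37 and 0.09, adjusted p = 0.369 and 0.683). Of the aldehyde oxidases, molybdenum enzymes that act on aldehydes and on aromatic nitrogen rings, Aox1 rose, with log2 ratios of 0.88, 0.66, 0.65 and 0.55 (mean 0.68 ± 0.07, adjusted p = 0.0050). Aox3 was well above background on 1 array in STMN1-/- RNA and on none in STMN1+/+ RNA, with a log2 ratio of 0.62 that did not pass (adjusted p = 0.0971).

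Of the aldehyde dehydrogenases, 17 of 18 member genes were tested, and they changed in both directions. In all, 5 were higher (29.4%) and 3 lower (17.6%), against 12.2% and 11.6% of all tested genes. The 3 lower genes, Aldh1a1, Aldh1a7 and Aldh1a2, belong to subfamily 1a. Aldh1a1, Aldh1a2 and Aldh1a3 oxidise retinaldehyde to retinoic acid, and Aldh1a7 is a close relative of Aldh1a1.

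Aldh1a1 gave signals of 1580, 1916, 1952 and 2256 in STMN1-/- RNA and 7109, 9999, 7836 and 8296 in STMN1+/+ RNA. The log2 ratios were -2.17, -2.38, -2.005 and -1.88 (mean -2.11 ± 0.10, 4.32 fold, adjusted p = 0.0008), and every STMN1-/- signal was below every STMN1+/+ signal. Aldh1a7 followed with -1.72, -1.47, -1.15 and -1.23 (mean -1.39 ± 0.11, adjusted p = 0.0022), at 298 to 423 against 941 to 981. Aldh1a2 had a mean of -0.42 ± 0.06 (adjusted p = 0.0121) and missed the threshold without replicate 1, 2 or 3. Aldh1a3 went the other way, with log2 ratios of 1.32, 1.19, 1.22 and 1.21 (mean 1.23 ± 0.06, 2.35 fold, adjusted p = 0.0008), from 1586 to 1979 in STMN1+/+ to 3687 to 4527 in STMN1-/- RNA. The second Aldh1a3 probe rose too, by a mean of 0.57 (adjusted p = 0.0468). Under normexp correction, Aldh1a1 (-1.29), Aldh1a2 (-0.35) and Aldh1a3 (0.86) passed and Aldh1a7 did not (-0.49, adjusted p = 0.0560).

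The other called members of the family were higher. Aldh1l1, which oxidises formyltetrahydrofolate, had log2 ratios of 0.89, 0.90, 0.71 and 0.68 (mean 0.80 ± 0.07, adjusted p = 0.0027). Aldh3b2, Aldh3b1 and Aldh6a1 had means of 0.42, 0.33 and 0.26 and rose on all arrays. Aldh3b1 lost its call without replicate 1, 2 or 3, Aldh3b2 without replicate 1, 2 or 4, and Aldh6a1 without any 1 of the 4. Some members that did not pass split by dye orientation: Aldh7a1 had 1.14 and 0.82 with STMN1-/- RNA in Cy3 and -0.38 and -0.33 with it in Cy5. Aldh2, the mitochondrial acetaldehyde enzyme, had 0.63 and 0.58 against -0.23 and -0.30 on its brighter probe, while its second probe was higher on all arrays (mean 0.62, adjusted p = 0.0062). Both were named after their values were seen.

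**Figure D3:**
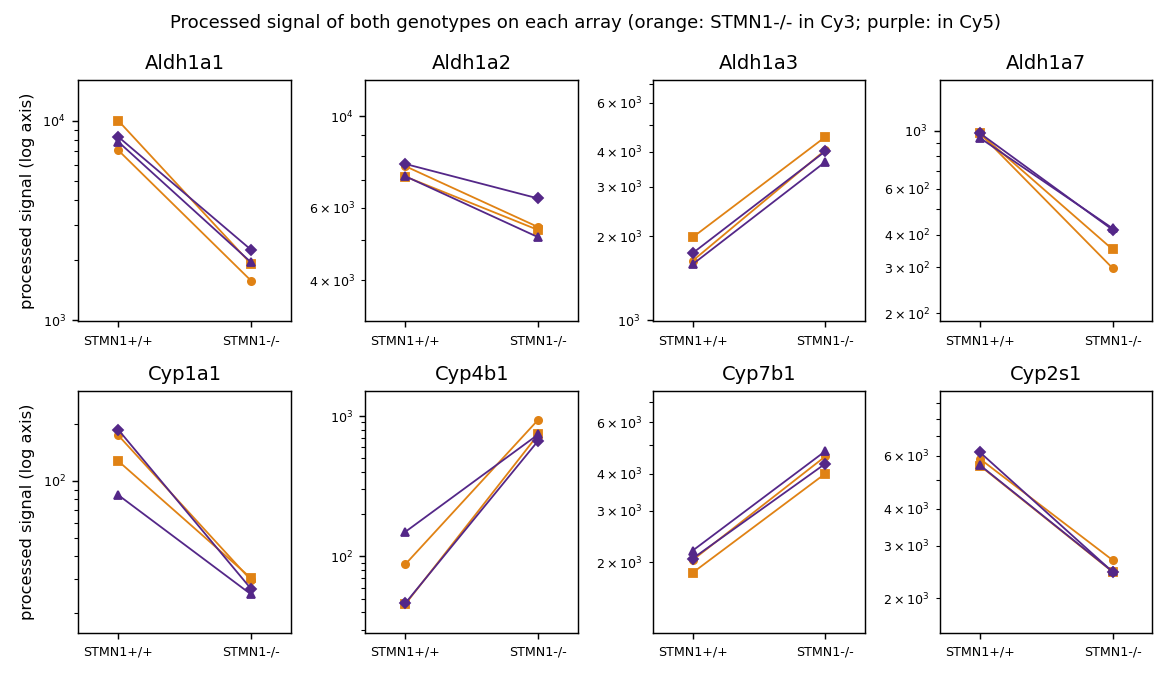
Processed signal (log axis, arbitrary units) of 8 member genes in STMN1+/+ and STMN1-/- RNA, with 1 line an array. The lines of Aldh1a3, Cyp4b1 and Cyp7b1 rise and those of the other 5 genes fall on all 4 arrays; axes differ between panels, and Cyp1a1 in STMN1-/- RNA and Cyp4b1 in STMN1+/+ RNA lie at or near background.

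Aldo-keto reductases of family 1 reduce aldehydes, sugars and steroid ketones. In STMN1-/- MEFs, 5 of the 9 tested genes (55.6%) were lower and none higher, against 11.6% and 12.2% of all tested genes. The median log2 ratio over the 9 was -0.38. Akr1c18, the 20α-hydroxysteroid dehydrogenase that inactivates progesterone, gave signals of 133, 139, 155 and 178 against 422, 395, 391 and 438. Its log2 ratio was -1.45 ± 0.08 (2.73 fold, adjusted p = 0.0011), and the groups did not overlap. Akr1b3, aldose reductase, had -0.92 and -0.72 on the 2 arrays where its brighter probe was not an outlier (mean -0.82, adjusted p = 0.0268). Its second probe, printed above, had -0.86, -0.91, -0.81 and -0.73 (mean -0.83 ± 0.06, adjusted p = 0.0018). Without replicate 1 or 3 the brighter Akr1b3 probe rested on a single array and did not pass (adjusted p = 0.130 and 0.104). Akr1c13 fell by a mean of 0.78 on the log2 scale (adjusted p = 0.0026) and Akr1c14, a 3α-hydroxysteroid dehydrogenase, by 0.57 (adjusted p = 0.0294). Akr1c14 was not called without replicate 1, 2 or 4 (adjusted p = 0.0860, 0.101 and 0.0788). Akr1c19 was lower on both of its probes (-0.38 and -0.65), and its brighter probe lost the call without any 1 array. Akr1b8 had -0.29 on 3 arrays and missed the threshold (adjusted p = 0.0518). With normexp correction, of the family Akr1b3 alone passed.

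The hydrolases showed little. Ephx1, which opens xenobiotic epoxides in the microsomes, and Ephx2, the soluble enzyme for fatty acid epoxides, had log2 ratios of 0.24 and -0.19 and did not pass (adjusted p = 0.254 and 0.217). Of 4 tested carboxylesterases, which cleave esters and amides, the gene listed as Ces5 and now named Ces2e was lower, with log2 ratios of -0.22, -1.06, -0.68 and -0.83 (mean -0.70 ± 0.14, adjusted p = 0.0280). It missed the threshold without replicate 2, 3 or 4 (adjusted p = 0.0811, 0.0881 and 0.0930).

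Among the conjugating enzymes, 18 of 19 glutathione transferases were tested. Of these, 3 were higher (16.7%) and 1 lower (5.56%), against 12.2% and 11.6% of all tested genes. Gsta3, an alpha class enzyme, had log2 ratios of 0.64, 0.73, 0.89 and 0.60 (mean 0.72 ± 0.07, adjusted p = 0.0040), and its second probe, at 0.43, did not pass (adjusted p = 0.0507). Gstm2, a mu class enzyme, had 0.65, 0.73, 0.65 and 0.70 (mean 0.68 ± 0.05, adjusted p = 0.0022), with signals of 17015 to 19521 against 10862 to 11986. Gsta4, which conjugates the lipid aldehyde hydroxynonenal, had a mean of 0.36 ± 0.05 (adjusted p = 0.0113) and missed the threshold without replicate 3 or 4 (adjusted p = 0.0550 and 0.0543). Gsta1 was lower, with signals of 161, 144, 159 and 181 against 314, 341, 375 and 378 (log2 ratio -1.13 ± 0.07, 2.18 fold, adjusted p = 0.0014). A Gsta2 probe that was too dim to test shares 20 bases in a row with the Gsta1 probe. Of the most widely used isoforms, Gstp1 and Gstm1 had log2 ratios of 0.06 and -0.05 and did not pass (adjusted p = 0.791 and 0.657), and they were chosen after their values were seen. Gstm2 kept its call with normexp correction and the other 3 did not.

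None of the 5 tested sulfotransferases passed, of 11 on the array, and the 4 that were well above background in both RNAs on at least 1 array had log2 ratios of 0.03 to 0.23. The other, Sult2b1, did not clear background in STMN1-/- RNA on any array. Of 14 UDP-glycosyltransferases, 4 were tested and 1 was lower. Ugt8a transfers galactose to ceramide, the first step to the galactolipids of myelin, and does not conjugate drugs. It gave 46.6, 36.2, 23.7 and 70.3 in STMN1-/- RNA, not well above background on any array, against 198.5, 180.3, 120.3 and 151.2. Ugt8a was at least 2.22 fold lower (adjusted p = 0.0062 for the measured log2 ratio of -1.96). Its other probes on the array were too dim in both RNAs to be tested. Ugt1a6b, the tested gene of the glucuronosyltransferase family 1, had 0.07 and did not pass (adjusted p = 0.595).

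Genes with several tested probes bear on the choice of probe. Of 22 such members, 3 had the same call on all tested probes, 12 had no called probe and 7 had called and uncalled probes. No gene had calls in both directions. Further probes of some called members, among them Akr1b3, Aldh3b2, Ces2e and Cyp2s1, were too dim to test and are not counted. The probes of 3 genes had opposite signs, all uncalled. With the median of a gene's probes in place of the brightest, 19 members were called higher and 17 lower, 31 of the 32 called genes among them.

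Low signals bear on many of the calls. Of the 32 called members, 16 had a mean signal over 1000 and 16 did not. With normexp correction 7 of the former passed and none of the latter, and the log2 ratios were 0.46 to 1.01 times those from processed signals in the former and 0.11 to 0.60 times in the latter. All 32 kept their sign. The genes that passed both ways were Akr1b3, Aldh1a1, Aldh1a2, Aldh1a3, Cyp2s1, Cyp7b1 and Gstm2.

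**Figure D4:**
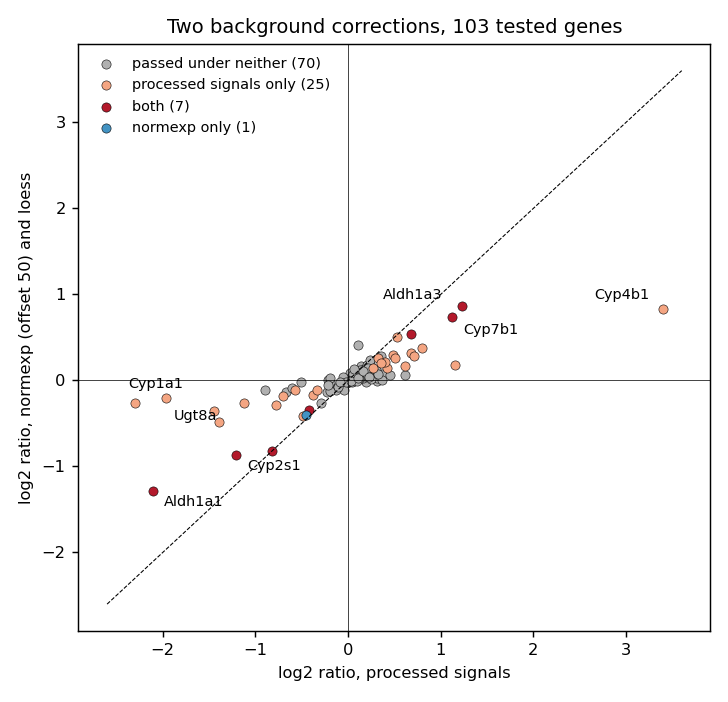
Log2 ratio (STMN1-/- over STMN1+/+) of the 103 tested detoxification genes from processed signals (x axis) and after normexp background correction with loess (y axis), 1 point a gene, with equality dashed. Most points lie nearer to 0 on the y axis, among them Cyp4b1 (3.40 and 0.82), Cyp1a1 (-2.30 and -0.26) and Ugt8a (-1.96 and -0.21); 7 genes passed the test both ways, 25 with processed signals alone and 1, Cyp1b1, with normexp alone.

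The genes that sense foreign compounds and oxidants were compared next. Of 13 genes for the AhR and NRF2 systems, 3 were higher (23.1%) and 4 lower (30.8%). Of all tested genes, 12.2% were called higher and 11.6% lower. Neither the receptor Ahr itself (log2 ratio 0.01) nor Nfe2l2, the gene of NRF2 (-0.03), passed (adjusted p = 0.953 and 0.776). Ahrr (-0.38, adjusted p = 0.0140) and Tiparp (-0.28, adjusted p = 0.0230), which repress the AhR and are its targets, were lower. So were Cyp1a1 and Cyp2s1, while the brighter probe of Cyp1b1 did not pass (adjusted p = 0.0732). Arnt, the partner of AhR, was higher (0.24, adjusted p = 0.0348). Of the small Maf proteins that pair with NRF2, Maff (-0.54, adjusted p = 0.0055) and Mafk (-0.32, adjusted p = 0.0213) were lower. Mafg had a ratio above 0 on every array and did not pass (0.22, adjusted p = 0.0974). The effect of leaving out an array was not read for Ahrr, Tiparp, Arnt or Mafk. Bach1, which represses NRF2 targets, was higher (0.59 on 3 arrays, adjusted p = 0.0237), as was Nfe2l1 (0.46, adjusted p = 0.0069). Bach1 had 0.33 with outlier spots kept (adjusted p = 0.322) and was not called without replicate 2 or 3 (adjusted p = 0.100 and 0.102).

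Among 21 tested genes of glutathione metabolism and NRF2 targets outside the enzyme families, 3 were higher (14.3%) and 5 lower (23.8%). The shares of all tested genes were 12.2% and 11.6%. Nqo1, the quinone reductase that both AhR and NRF2 induce, had log2 ratios of -1.71, -0.79, -0.63 and -0.74 (mean -0.97 ± 0.20, adjusted p = 0.0267). It was lower on all arrays and farthest on replicate 1, and missed the threshold without replicate 2, 3 or 4 (adjusted p = 0.0747, 0.0569 and 0.0665). Gclm, the modifier subunit of glutathione synthesis, was lower (-0.47), and so were Txnrd1, Hmox1 and Gpx1. The genes that rose were Chac1 (1.04, adjusted p = 0.0014), which degrades glutathione, Slc7a11 (0.73), which imports cystine, and the secreted peroxidase Gpx3 (0.64).

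Of 23 tested genes of retinoid metabolism and response, 7 were higher (30.4%) and 4 lower (17.4%), against 12.2% and 11.6% of all tested genes. Adh1 and Adh7, alcohol dehydrogenases that oxidise retinol, had log2 ratios of 2.07, 2.06, 2.17 and 2.36 (mean 2.17, 4.49 fold, adjusted p = 0.0006) and 1.27, 1.29, 1.47 and 1.47 (mean 1.37, adjusted p = 0.0008). Rdh10, which makes retinaldehyde, was higher by 0.67. Rbp4, the plasma retinol carrier, Dhrs9, Adh5 and the receptor Rarb, itself a target of retinoic acid, were lower (-0.63, -0.41, -0.22 and -0.27), and Rara and Rarg did not pass. Rarres2 was higher (0.80, adjusted p = 0.00795), as were Rarres1 and Rdh12.

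**Figure D5:**
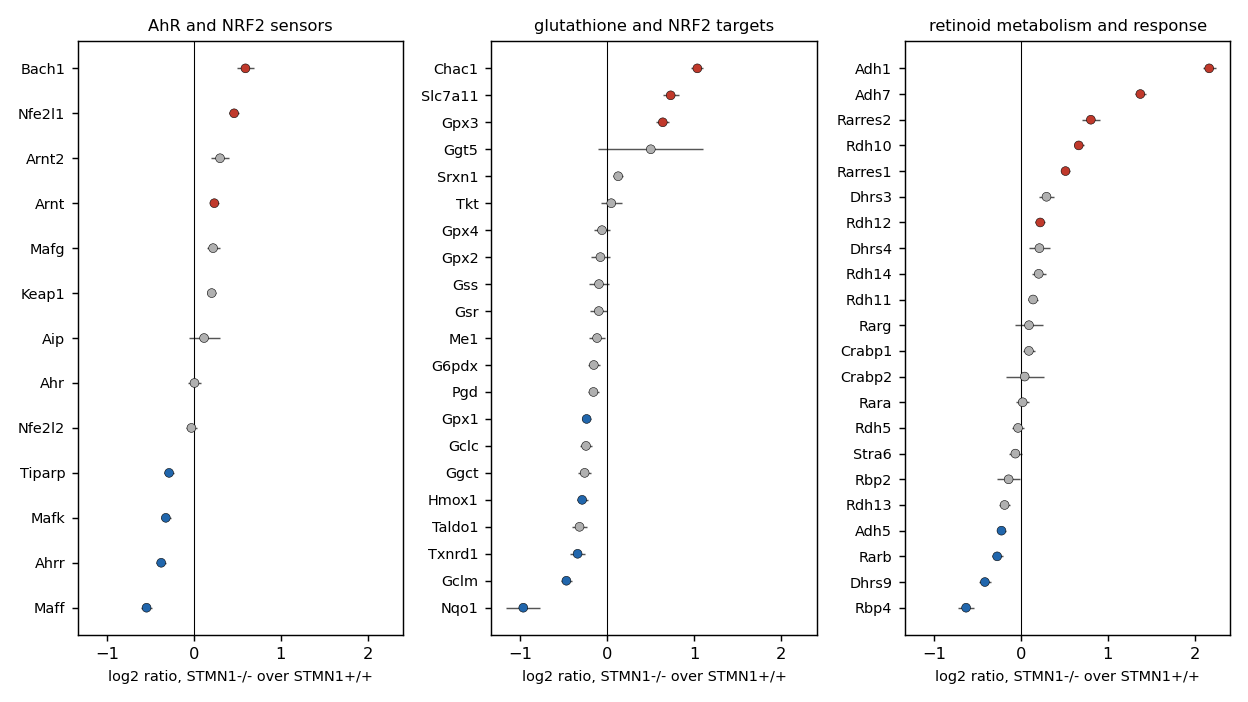
Log2 ratio (STMN1-/- over STMN1+/+, x axis) with its standard error for tested genes of 3 lists (y axes) outside the enzyme families; red and blue points passed the test as higher and lower, grey points did not. The outermost points are Maff (-0.54) and Bach1 (0.59), Nqo1 (-0.97) and Chac1 (1.04), and Rbp4 (-0.63) and Adh1 (2.17).

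The enzymes' partners and the receptors that control them were also read. Of 14 tested redox partners and heme enzymes, 1 was higher (7.14%) and 2 lower (14.3%), against 12.2% and 11.6% of all tested genes. Por, the P450 reductase, did not pass (log2 ratio 0.08, adjusted p = 0.389), Cyb5r1 was higher (0.31), and Alas1, the first enzyme of heme synthesis, was lower (-0.32, adjusted p = 0.0173). Both calls were lost when any 1 array was left out. Of 11 genes that make or carry the donors for conjugation, 3 were lower (27.3%) and none higher. Ugdh, which makes UDP-glucuronic acid, had log2 ratios of -0.74, -0.74, -0.71 and -0.84 (mean -0.76, adjusted p = 0.0019), and Slc35d1, which carries it into the endoplasmic reticulum, had -0.50 (adjusted p = 0.0077). Bpnt1, which clears the by-product of sulfation, was lower too (-0.49). Of 12 tested nuclear receptors, 4 were higher (33.3%) and 2 lower (16.7%). Vdr, the vitamin D receptor, rose (0.89, adjusted p = 0.0013), with Rxrg (0.58), Rxra and Ppara, Rxrg losing its call without replicate 1, 2 or 3 (adjusted p = 0.0584, 0.0577 and 0.0564), while Nr1h4, the bile acid receptor, fell (-0.82, adjusted p = 0.0085), as did Pparg (-0.43).

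In the lists closest to the members, 6 of 13 tested steroid dehydrogenases and reductases were higher (46.2%) and none lower. The shares of all tested genes were 12.2% and 11.6%. Hsd17b1, which makes oestradiol, had a mean of 1.07 (adjusted p = 0.0115), Hsd17b7 of 0.52 on 3 arrays, and Hsd11b1, which reactivates glucocorticoids, of 0.51. Hsd17b7 missed the threshold without replicate 1, 2 or 4 (adjusted p = 0.0809, 0.0883 and 0.0567) and Hsd11b1 without replicate 2 or 4 (adjusted p = 0.0569 and 0.0544). Of 13 other conjugating enzymes, 3 were higher (23.1%), with the nicotinamide methyltransferase Nnmt first (0.70, adjusted p = 0.0032). As many were lower (23.1%), among them Inmt (-0.72) and the prostaglandin synthase Ptges (-0.50). Of 17 other oxidoreductases, 2 were higher (11.8%) and 1 lower (5.88%). Aoc3, a copper amine oxidase (1.13, adjusted p = 0.00083), and Vkorc1 (0.49), the vitamin K reductase, were higher. Aoc2 was lower (-0.31), a call lost without any 1 array.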

How the data were processed

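Total RNA of STMN1+/+ and STMN1-/- MEFs was compared on 4 Agilent 2-color arrays of 1 slide and 1 scan. Processed intensity values were deposited for both dyes; per the file headers they come from Feature Extraction 9.5.3.1 (Agilent), which subtracted background, balanced the dyes by LOWESS on every array and put surrogates in place of dim signals. That program's deposited log10 ratio of Cy5 over Cy3 served as an alternative. The authors' lists of selected probes hold log ratios of probes picked by their own test and were not used.

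Control spots and 472 to 711 outlier spots per array were left out, spots of a probe were averaged, and ratios were turned by the dye labels. Saturated spots numbered 0. The array number limits the precision. The test was that of limma 3.58.1 under R 4.3.3 for a mean log2 ratio other than 0 (lmFit and eBayes, two-sided, Benjamini-Hochberg over all 27669 tested probes), with jsonlite 2.0.0 and the data.table package, release 1.17.8, and its script was tested on simulated data. A gene is its probe with the highest mean signal. Current names came by accession for 203 of 233 member probes, by symbol for 29 and by synonym for 1. Python 3.11.15 drew the figures (numpy 2.4.6, pandas 2.3.3, matplotlib 3.10.9).

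Named genes were up to 4 called genes per family (P450s by class) with the largest log2 ratio, at least 1.2 fold and the same way on all arrays, all genes of families with 3 or fewer tested, genes called in both directions, up to 3 per list, and Stmn1; others are given for context of a list or as marked. Members and lists were chosen with earlier results of these data known. The position of probes in proteins was not analysed here, and probes were printed where their coordinates cross an intron and a reading frame is open. Alternatives were normexp (offset 50) with loess, the log10 column, scaling between arrays, centring on the median, a stricter filter and none, outlier spots kept, a dye coefficient, the methods' t-test, each array left out, and the median of a gene's probes. Some genes are counted but not reported by name here or drawn by name in the figures.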

Additional observations from a re-analysis of the deposited data

Results flagged for a closer look

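Over the 4 arrays, 57 named probes had a value on each and were checked for an array far from the others, which chance flags in about 1 of 20 groups. In 3 of them 1 array stood apart. Ephx2 had a log2 ratio of -0.51 on replicate 2 and -0.11 to -0.06 on the others. Nfe2l1 had 0.56 on replicate 3 and 0.43 to 0.44 on the others. Nqo1 had -1.71 on replicate 1 and -0.79 to -0.63 on the others.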

How the results depend on the processing

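The test of each array's ratio against 0 already pairs the genotypes. No further paired analysis was possible because a block by array leaves nothing to fit. Of 755 values of 59 named probes under the alternatives, 647 kept their direction and their side of the threshold, 102 lost the call, 3 gained one and 3 turned, all of uncalled genes: Ephx2 was 0.028 and Fmo5 -0.0076 with normexp, and Fmo5 ranged from -0.023 without replicate 2 to 0.24 without replicate 1. With normexp and loess, 3 detoxification genes were called higher and 5 lower, with 1 Akr1, 3 Aldh, 3 Cyp and 1 Gst gene, 3 probes higher and 6 lower, 11 regulator, partner and cofactor genes higher and 11 lower, against 29 and 24, and 847 genes of all tested higher and 912 lower, against 2291 and 2182. With no filter on dim probes, which tests more probes, 2 Akr1 and 5 Aldh genes, 14 regulator genes lower, and 1480 and 1329 genes of all were called. With the dye effect as a coefficient, 30 members were higher, 18 Cyp and 7 Gst genes and 37 probes higher were called, and 3786 and 3652 genes of all. With the methods' t-test, adjusted by Benjamini-Hochberg, 11 members were higher, with 2 Akr1 and 6 Cyp genes, 12 probes higher, 15 regulator genes lower and 1390 of all genes lower, and the brighter Stmn1 probe had -0.39 (adjusted p = 0.0521). At its unadjusted p, 24 members were higher and 16 lower, 8 of them Gst genes. Leaving out 1 array gave 9 to 14 members higher and 10 to 11 lower, 2 to 3 Akr1, 4 to 6 Aldh, 5 to 9 Cyp and 3 to 5 Gst genes, 10 to 15 probes higher and 12 to 14 lower, 15 to 21 regulator genes higher and 10 to 11 lower, 1139 to 1301 genes of all higher and 1004 to 1154 lower, and -0.44 to -0.35 for the brighter Stmn1 probe. The stricter filter left out Cyp1a1 and Ugt8a, which are dim. The causes of the other changes were not tested.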
